A study of Mus musculus with 15 samples.

Results

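Transcripts of the oxidative phosphorylation machinery were measured by bulk RNA-seq of frozen distal jejunum, a nutrient-absorbing stretch of small intestine, in 15 libraries from male C57BL/6 mice 13 to 15 weeks old. The 4 groups were wild-type mice (WT) on a control diet holding 0.08% cholesterol (n = 4), WT on that diet with 0.01% ezetimibe (n = 4), global Aster-B/C knockout mice (KO) on the control diet (n = 3), and KO on the ezetimibe diet (n = 4). Both diets held the same cholesterol, and the knockout was not limited to the intestine. Aster-B and Aster-C, the products of Gramd1b and Gramd1c, are proteins of the endoplasmic reticulum that draw cholesterol out of the cell's outer membrane, and ezetimibe blocks NPC1L1, the importer of cholesterol at the gut surface. Neither the targeted alleles nor the backcross history is given in the labels. Genes were taken by name and biotype: protein-coding symbols that begin with mt-, with Ndufa, Ndufb, Ndufc, Ndufs or Ndufv, with Uqcr, with Cox4 to Cox8 or with Atp5, plus Sdha, Sdhb, Sdhc and Sdhd. Of 105 such genes 102 had a normalised count of at least 10 in at least 3 libraries, out of 26844 genes in the table and 14299 that passed the same filter. These 102 genes comprised 12 encoded by mitochondrial DNA and 90 encoded in the nucleus, and 101 of them reached 10 in every library. The nuclear genes were 38 of complex I, 8 assembly factors of complex I (Ndufaf genes), 4 of complex II, 8 of complex III, 15 of complex IV and 17 of ATP synthase (complex V). The mitochondrial genes were 7 of complex I, 1 of complex III, 3 of complex IV and 1 of ATP synthase.

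Oxidative phosphorylation moves electrons from NADH through complex I, or from succinate through complex II, to coenzyme Q, then through complex III and cytochrome c to complex IV, which reduces oxygen. Complexes I, III and IV pump protons across the inner mitochondrial membrane, and ATP synthase uses the returning protons to make ATP. All complexes but the second mix subunits from the nuclear genome with a few hydrophobic subunits made inside mitochondria, so that their assembly needs products of both genomes. Absorptive enterocytes, the main cell type of the villus, are rich in mitochondria and spend much ATP on nutrient transport and on packaging lipid into chylomicrons.

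Library depth, as whole reads rebuilt from the normalised values, ran from 13855034 to 19307079. As a check of the labels, Gramd1c lay at 1059 to 1845 normalised counts in the 8 WT libraries and 71.8 to 194 in the 7 KO libraries, and Gramd1b at 2274 to 4046 and 962 to 2086. The genotypes did not overlap for either gene. Summed counts of 12 enterocyte markers (among them Fabp1, Apoa4, Sis and Vil1) were 927233 to 1326977 in WT control, 942339.9 to 1120112 in WT ezetimibe, 1152819.5 to 1301177 in KO control and 1174292 to 1425684 in KO ezetimibe, and no enterocyte marker was at 0 in every library. WT control replicate 4 and KO ezetimibe replicate 3 stood at opposite ends of the first principal component of all genes. With both left out, the median log2 fold changes of nuclear members were 0.20 for KO against WT without ezetimibe and −0.23 for ezetimibe in KO, beside 0.19 and −0.27 with them, and neither comparison had a called member. In bulk tissue, fewer cells of a type and less RNA per cell cannot be told apart.

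The 12 mitochondrial genes fell into 2 blocks of very unequal counts. Sequences of 3 of them are shown beside their copies in the nuclear genome because such copies bear on whether a count can be read as a level. Mouse chromosome 1 carries a stretch of mitochondrial DNA inserted in the nuclear genome, and its pieces are annotated as separate gene models in the table (GENCODE M21 on GRCm38, chr1:24611535-24616197, minus strand). The first 120 bases of mt-Co2 (chrM:7013-7696, the second subunit of cytochrome c oxidase) and of its copy Gm28661 are the same letter for letter, those of mt-Nd3 (chrM:9459-9806, complex I) and Gm28438 differ at a single base, and the start of the Gm29216 copy differs from bases 1054 to 1173 of mt-Co1 (chrM:5328-6872, the catalytic subunit of complex IV) only at its edge. Differing bases are in capitals.
mt-Co2: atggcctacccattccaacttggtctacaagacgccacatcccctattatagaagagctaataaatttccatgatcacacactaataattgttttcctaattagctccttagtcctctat
Gm28661: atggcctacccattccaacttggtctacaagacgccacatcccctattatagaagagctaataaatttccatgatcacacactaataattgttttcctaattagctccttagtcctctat
mt-Nd3: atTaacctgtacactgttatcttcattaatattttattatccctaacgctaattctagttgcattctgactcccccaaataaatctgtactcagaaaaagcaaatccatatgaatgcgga
Gm28438: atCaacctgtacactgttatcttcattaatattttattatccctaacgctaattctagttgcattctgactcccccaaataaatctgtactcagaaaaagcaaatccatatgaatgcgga
mt-Co1: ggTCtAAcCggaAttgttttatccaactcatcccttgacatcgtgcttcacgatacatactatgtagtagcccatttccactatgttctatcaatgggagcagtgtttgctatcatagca
Gm29216: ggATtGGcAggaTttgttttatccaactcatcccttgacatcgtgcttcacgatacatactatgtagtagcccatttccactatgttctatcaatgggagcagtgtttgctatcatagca

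Counted from base 1 of the mitochondrial gene, mt-Nd3 and Gm28438 differed by T3C over 345 aligned bases (99.71% identical). For mt-Co1 and Gm29216 the substitutions were T1056A, C1057T, A1059G, A1060G, C1062A and A1066T over 492 bases (98.78% identical). mt-Co2, mt-Co3, mt-Atp6 and mt-Nd4l had no difference from Gm28661, Gm28437, Gm10925 and Gm10222 over 681, 783, 678 and 294 bases. Scored as the percent of all runs of 50 bases that also occur in a transcript of another gene, mt-Co2 shared 100%, mt-Co3 99.9%, mt-Atp6 99.5%, mt-Nd4l 98.8% and mt-Nd3 98.0%. mt-Nd4 shared 62.2% (Gm28439, no difference over 876 bases) and mt-Co1 51.1%. mt-Nd2 and mt-Nd5 shared 8.19% and 7.61%, and mt-Nd1, mt-Nd6 and mt-Cytb 0.0%.

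Among the 12 tested mitochondrial genes, those with nearly complete copies were the low ones. Per kilobase of exon and averaged over the 15 libraries, the level was 173282 normalised counts for mt-Co1, 85768 for mt-Cytb (the only mitochondrial subunit of complex III) and 60360.2 for mt-Nd1. It was 32896 for mt-Nd2, 29460.3 for mt-Nd4, 24790.0 for mt-Nd5 and 22413 for mt-Nd6, the subunit encoded on the opposite strand. By contrast the level per kilobase was 1047 for mt-Co2, 856 for mt-Atp6, 849 for mt-Co3, 152 for mt-Nd3 and 130.0 for mt-Nd4l. In each of the 15 libraries these 5 genes lay below every other tested mitochondrial gene.

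For some of these genes the copy was counted at a similar depth. In WT control, mt-Co2 had 732, 640.3, 698 and 679.6 normalised counts in replicates 1 to 4 and Gm28661 had 672, 557, 654 and 638. For mt-Co3 the counts were 720.0, 608, 696 and 653, beside 646, 606, 633 and 573 for Gm28437. For mt-Nd4l they were 40.1, 28.1, 46.4 and 31.6, beside 40.1, 24.5, 35 and 27.5 for Gm10222. Other pairs were unequal. Averaged over the 15 libraries, Gm28438 had 383 normalised counts beside 52.8 for mt-Nd3. The partial copies were far lower than their genes: Gm29216 had 552 beside 267721 for mt-Co1, and Gm28439 197 beside 40596 for mt-Nd4. A read from such a stretch matches both places, and the handling of such reads by the submitters' counter was not given in the sources used here. Counts of mt-Co2, mt-Co3, mt-Atp6, mt-Nd3 and mt-Nd4l, and in part those of mt-Co1 and mt-Nd4, are therefore uncertain as levels of the mitochondrial transcripts. mt-Atp8 (chrM:7766-7969), which overlaps mt-Atp6, ranged from 2.06 to 16.1 and did not pass the level filter. It shared 0.0% of its runs of 50 bases with an annotated transcript of another gene. The search did not cover sequence without a gene model, so a copy of mt-Atp8 there would not be seen. Whether counting used the strand is not stated, so reads from the overlapping ends of mt-Nd5 and mt-Nd6 cannot be told apart. mt-Nd4l and mt-Nd4 also overlap, but on the same strand, so that a strand setting would not separate their shared reads.

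**Figure D1:**
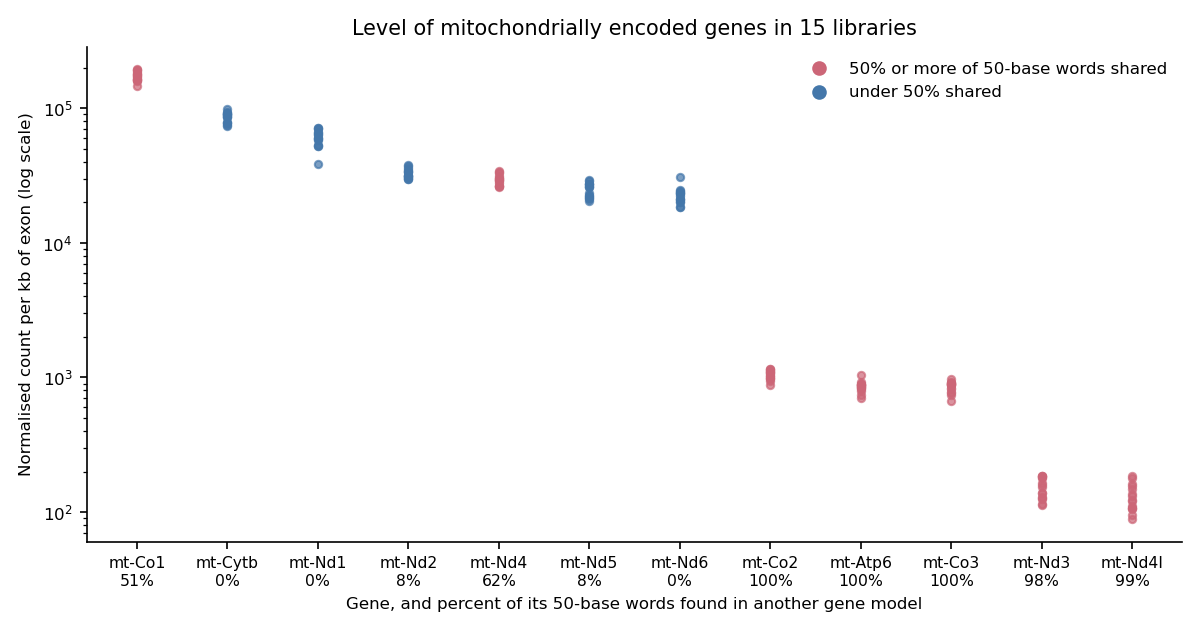
Each point is the normalised count per kilobase of exon of a mitochondrially encoded gene in 1 of 15 libraries, on a log scale, and the percent under each name is the share of its runs of 50 bases found in another gene model. The 5 genes that share 98.0% or more lie at or below a mean of 1047 per kilobase, and the other 7 lie at or above 22413.

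Among nuclear genes the level per kilobase of exon also differed by complex. Complex IV genes had a median of 2230.0, from 17.6 (Cox6a2) to 7040.0 (Cox6a1). Complex II genes had a median of 1820.0, from 1020.0 (Sdhc) to 3440.0 (Sdhd), and complex III genes a median of 1770.0, from 1360.0 (Uqcrc1) to 2910.0 (Uqcrfs1). ATP synthase genes had a median of 1110.0, from 125 (Atp5l) to 6250.0 (Atp5b), the last being the catalytic beta subunit, and complex I genes a median of 603, from 11.8 (Ndufb2) to 2400.0 (Ndufa4). The 8 complex I assembly factors, which act on the complex while it is built and are not part of it, had a median of 67.7, from 33.8 (Ndufaf5) to 357 (Ndufaf8). The median over the 14299 genes tested was 49.3. Exons here are the union over all annotated transcripts, so long alternative transcripts lower a gene's value here; the union was 5628 bases for Ndufb2 and 6443 for Atp5l, beside a median of 1631 for the nuclear members. Among the nuclear members 9 share at least 20% of their runs of 50 bases with another gene model and are uncertain to that extent: Ndufaf2 (64.1%), Cox5b-ps (61.9%), Atp5o (41.6%), Atp5g2 (38.4%), Ndufb6 (31.6%), Ndufa13 (28.5%), Uqcrb (25.5%), Cox7c (22.1%) and Ndufs5 (21.7%).

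Paired tissue isoforms were unequally represented. Cox6a1, the widely expressed form of subunit VIa, averaged 4939.5 normalised counts over the 15 libraries, and Cox6a2, the heart and skeletal muscle form, 12. Cox4i1 averaged 5702, while Cox4i2, a form known from lung and low oxygen, ranged from 0 to 5.73 and fell outside the filter. Cox6b1 averaged 3404 and the testis form Cox6b2 111. Ndufa4 averaged 3313, and its relative Ndufa4l2, a hypoxia-response gene, reached 2.17 at most. Cox7a1, usually described as the muscle form, averaged 1503 beside 2103 for the widely expressed Cox7a2, at exon lengths of 535 and 944 bases. In WT control replicates 1 to 4 Cox7a1 stood at 1495, 1455, 1395 and 1079. Of the 5 listed skeletal and heart muscle genes with counts, 1 passed the filter, Acta1. Their summed counts were 2071 to 5423 in WT control, 996 to 4318 in WT ezetimibe, 2549 to 6858 in KO control and 188.5 to 3918 in KO ezetimibe. The part of muscle RNA in the Cox7a1 counts was not tested. Cox6a2 was the member nearest the filter from above, with a third-highest value of 16.3, then mt-Nd4l with 47.9, and just below it the third-highest values were 9.75 for mt-Atp8, 3.09 for Cox4i2 and 1.88 for Ndufa4l2.

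On the control diet, the counts of most nuclear oxidative phosphorylation genes were higher in KO than in WT jejunum, but only 1 of the 102 genes passed the test. Cox6a1 (ENSMUSG00000041697, chr5:115345642-115348981, minus strand), a subunit of cytochrome c oxidase, rose. Its normalised counts were 4558, 4510.0, 4336 and 4373 in WT control and 6331, 6925 and 5740.5 in KO control. Every KO library lay above every WT library. The means were 4444 ± 106 (SD, n = 4) and 6332 ± 592 (SD, n = 3), a 1.42-fold difference (log2 fold change 0.51, SE 0.094, limma adjusted p = 0.047, Benjamini-Hochberg over 14299 genes). The call was close to the threshold and held in 7 of 22 alternative analyses, with a log2 fold change from 0.42 to 0.58 and adjusted p from 7.76e-05 (DESeq2) to 0.244. It was lost when any of WT control replicates 2, 3 and 4 or any KO control library was left out (adjusted p 0.0577 to 0.241).

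The 1 called gene of 102 stands beside 0.371% of all 14299 genes called in this comparison (53 genes). At an unadjusted p under 0.05, 30 of the 102 genes were higher in KO and 0 lower, beside 6.87% of all genes higher and 7.86% lower. All 3 KO libraries lay above all 4 WT libraries for 34 of the 102, where 6.59% of all genes did so. The log2 fold change was above 0 for 94 of 102 genes (92.2%) and for 49.1% of all genes, and its median was 0.19 for the nuclear genes, 0.11 for the mitochondrial genes and −0.0054 for all genes. DESeq2 on the recovered reads called 9 members, all higher, where 3.43% of the genes it tested were called. edgeR's quasi-likelihood test called 0 members and 12 genes in all. The authors' deposited table of this comparison holds 424 rows, 194 higher and 230 lower. The same 9 members are among them, all higher, with log2 fold changes from 0.26 (Uqcrc1) to 0.57 (Cox7a2l). They are Ndufa1, Ndufa6, Ndufv3, Uqcrc1, Cox4i1, Cox6a1, Cox6c, Cox7a2l and Atp5d. Of these, Ndufa6 was named after its values were seen. The recovered reads derive from the authors' own normalised counts, so the match is not independent.

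**Figure D2:**
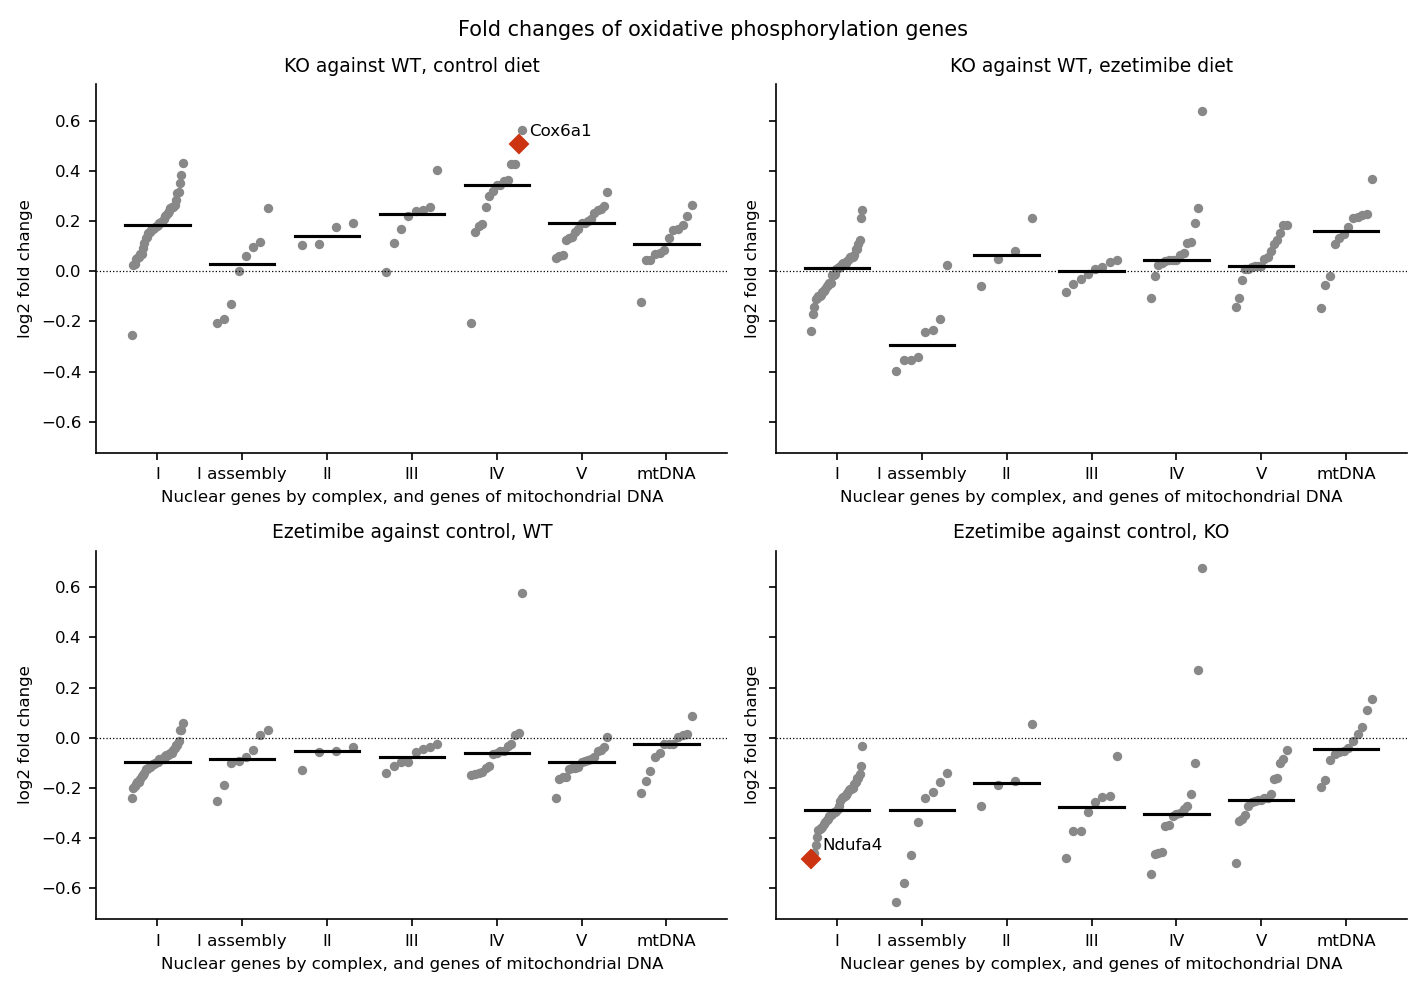
Each point is the log2 fold change of 1 of 102 genes in 1 of 4 comparisons, grouped by complex for nuclear genes (I to V and complex I assembly factors) and together for the 12 genes of mitochondrial DNA, with a bar at each group's median. Red diamonds are the 2 genes with an adjusted p under 0.05, Cox6a1 and Ndufa4. Nuclear medians lie above 0 for the knockout without ezetimibe and below 0 for ezetimibe in KO, while the mitochondrial medians are 0.11 and −0.05.

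Complex IV had the highest median among the nuclear groups. Over its 15 genes the median log2 fold change was 0.34, with 14 above 0, 10 at an unadjusted p under 0.05 and 11 without overlap between KO and WT libraries. Over all genes, 6.87% were higher at that p and 6.59% were higher without overlap. Cox7a2l, a factor that joins complexes III and IV into supercomplexes and is known in C57BL/6 mice in a shortened form, had normalised counts of 1231, 1256, 1223 and 1223 in WT control and 1725, 1898 and 1853 in KO control (log2 fold change 0.56, SE 0.14, limma adjusted p = 0.0758). The WT libraries spanned a narrow range and the KO libraries lay wholly above it. Cox4i1, the largest nuclear subunit of the enzyme, had 5364, 5533, 5254 and 5466 in WT control and 6597, 8191 and 7080.3 in KO control (log2 fold change 0.43, SE 0.11, limma adjusted p = 0.101). Cox6c, a small membrane subunit, had 2922, 3129, 3299 and 3334 in WT control and 3974, 4745 and 4112 in KO control (log2 fold change 0.43, SE 0.12, limma adjusted p = 0.101). Neither of these overlapped between the groups, and KO control replicate 2 was the highest library for both. Of the other named isoforms the log2 fold change was 0.34 for Cox6b1, 0.36 for Cox7a1, 0.32 for Cox8a, 0.26 for Cox7a2 and 0.16 for Cox5a, a subunit of the matrix side. Cox6a2, at a mean of 12 counts, was the lowest of the complex at −0.20 with an SE of 0.56.

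**Figure D3:**
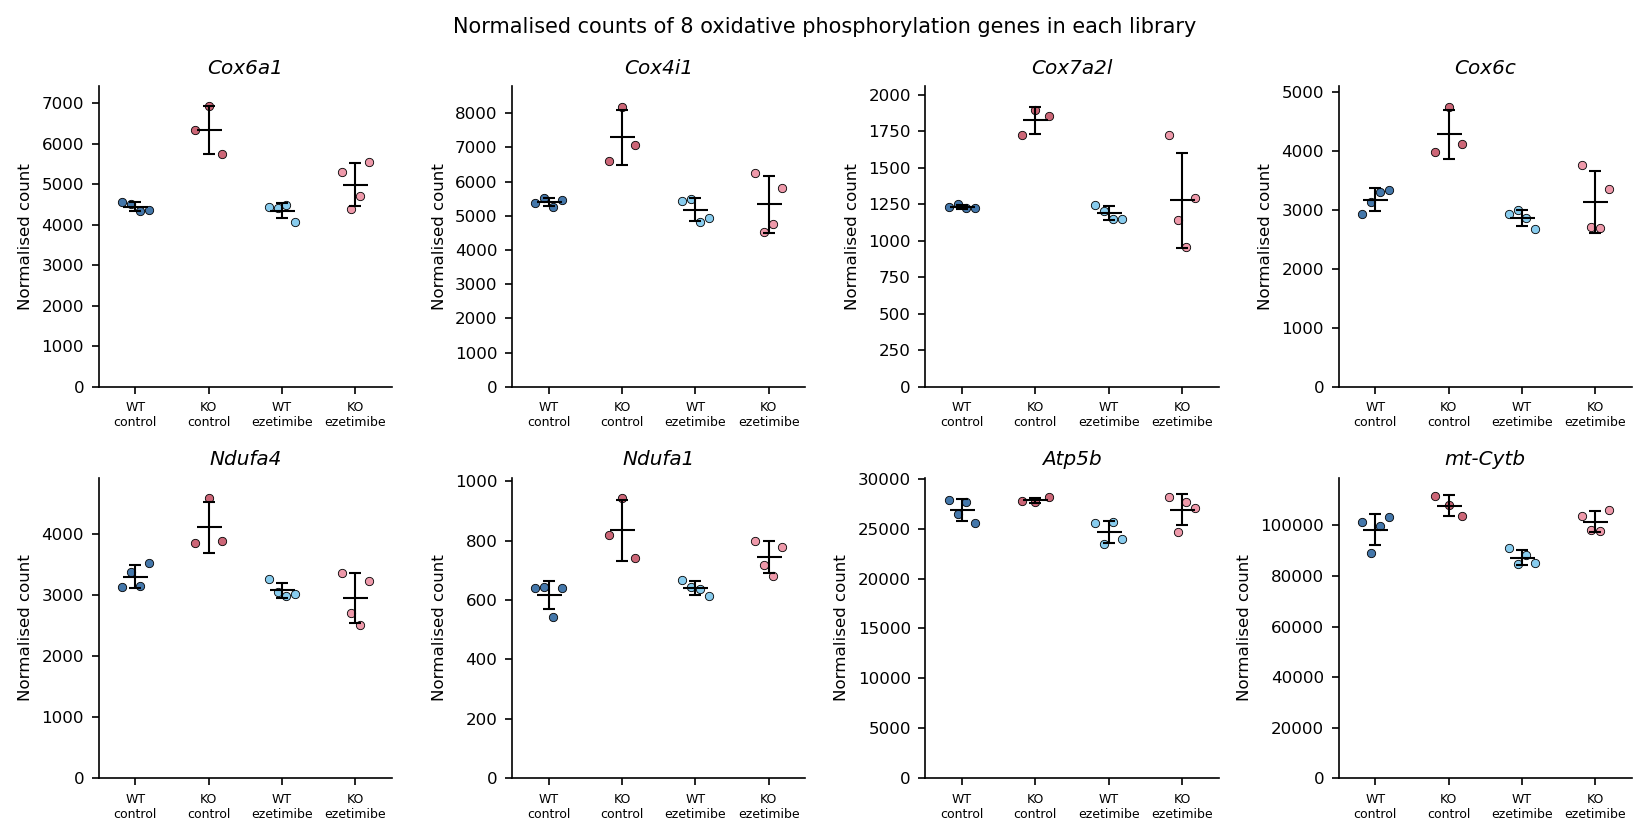
Normalised counts of 8 genes in each library (points), with the mean and SD of each group (bars), for WT and KO mice on the control and ezetimibe diets, on axes that start at 0. Cox6a1, Cox4i1, Cox7a2l and Cox6c lie higher in all 3 KO control libraries than in all 4 WT control libraries, while Atp5b overlaps between these groups and Ndufa4 is lower in all 4 KO ezetimibe libraries than in all 3 KO control libraries.

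The other complexes had lower medians. The 38 complex I genes had a median of 0.18, with 37 above 0 and 12 at an unadjusted p under 0.05, where 6.87% of all genes were higher. Ndufa1, an accessory subunit of the membrane arm encoded on the X chromosome, had normalised counts of 639, 644, 544 and 639 in WT control and 817, 944 and 741 in KO control. WT control replicate 3 stood below the other WT libraries and all KO libraries above them (log2 fold change 0.43, SE 0.10, limma adjusted p = 0.0648). Ndufv3, an accessory subunit of the NADH-binding module, followed with 0.35 (adjusted p = 0.121), and Ndufa4, named as a complex I gene but known as a subunit of complex IV, with 0.31 (adjusted p = 0.174). Among core subunits the log2 fold change was 0.02 for Ndufs1, the largest iron-sulphur protein of the complex, and 0.19 for Ndufv1, which binds NADH. Ndufb2 was the one complex I gene below 0, at −0.26 with an SE of 0.22.

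Complex III had a median of 0.23 over 8 genes, from −0.0033 for the core protein Uqcrc2 to 0.40 for the hinge protein Uqcrh. Its partner core protein Uqcrc1 had normalised counts of 5226, 5269, 5564 and 5653 in WT control and 6594, 6724 and 6121 in KO control, with no overlap (log2 fold change 0.26, adjusted p = 0.169), and the Rieske iron-sulphur protein Uqcrfs1 had 0.22. Complex II, whose 4 genes are all nuclear, had a median of 0.14, with 0.10 for the flavoprotein Sdha and 0.11 for the iron-sulphur protein Sdhb. The 17 ATP synthase genes were all above 0, with a median of 0.19. Their highest was Atp5d, a subunit of the rotor's stalk, with normalised counts of 4308, 4064, 4043 and 4017 in WT control and 4813, 5686 and 4859.9 in KO control (log2 fold change 0.31, adjusted p = 0.127), and their lowest the catalytic Atp5b at 0.05. Atp5a1, the alpha subunit, had 0.07. Atpif1, the inhibitor that stops ATP synthase from running in reverse, is not among the 102 genes and had 0.21 (adjusted p = 0.573). The 8 complex I assembly factors had a median of 0.03, with 4 above and 4 below 0 and 0 at an unadjusted p under 0.05.

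Averaged over genes on the log2 scale, the complex IV level was 10.28, 10.20, 10.02 and 10.19 in WT control replicates 1 to 4 and 10.34, 10.63 and 10.46 in KO control replicates 1 to 3. For complex III it was 11.21, 11.31, 11.25 and 11.33 in WT control and 11.41, 11.60 and 11.43 in KO control. In complexes II, III, IV and V the lowest KO control library lay above the highest WT control library, and in complex I, the assembly factors and the mitochondrial genes the groups overlapped. KO control replicate 2 was the highest library of all 15 for each nuclear subunit group. Without it the nuclear median went from 0.19 to 0.12, complex I from 0.18 to 0.083, ATP synthase from 0.19 to 0.12 and complex IV from 0.34 to 0.27.

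**Figure D4:**
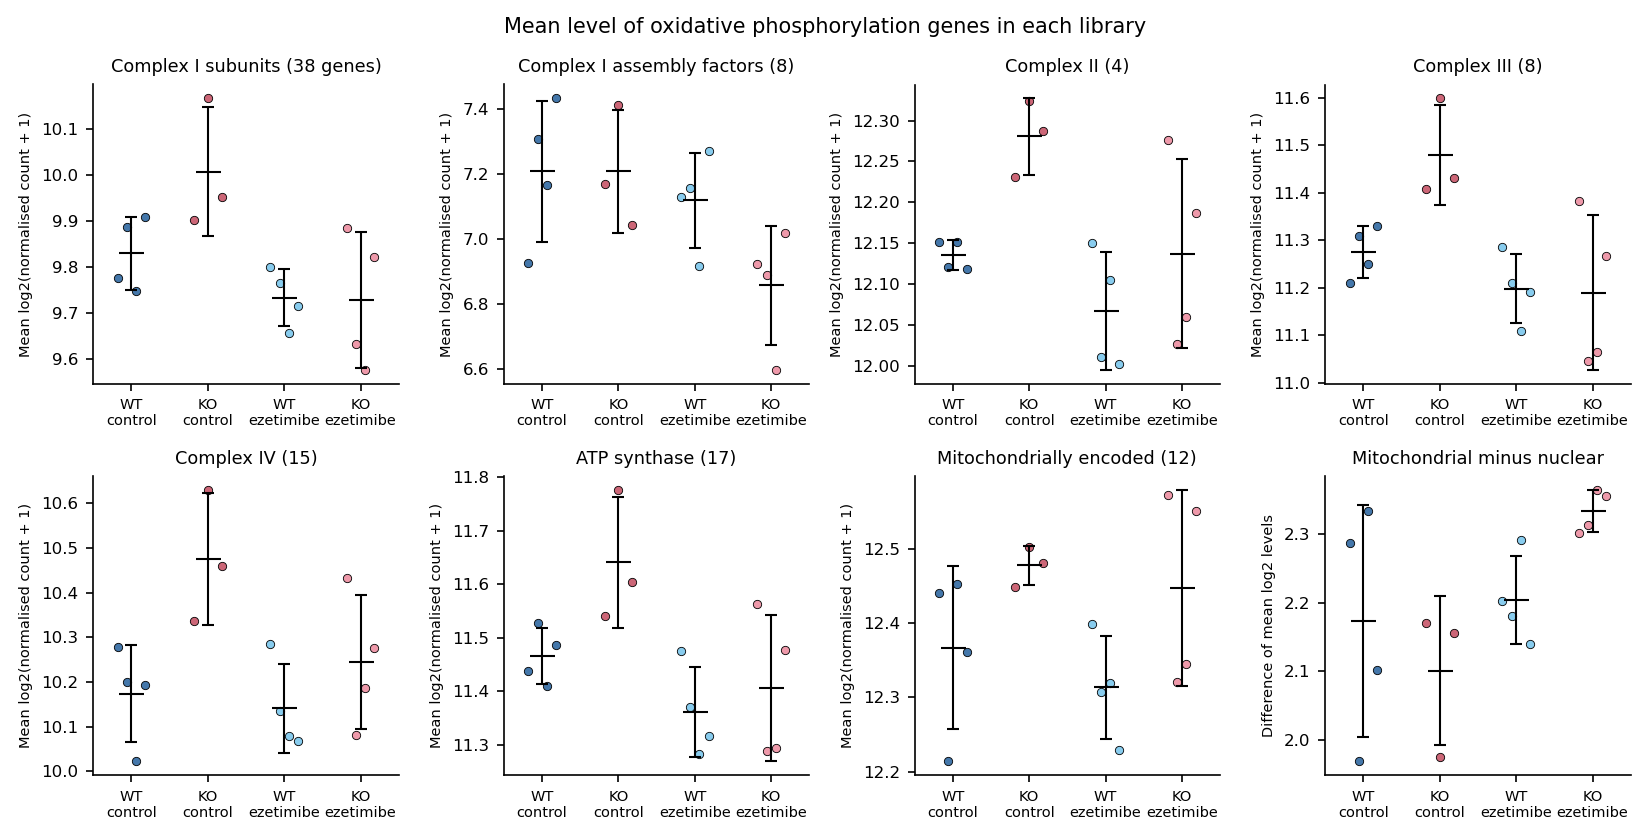
Mean log2(normalised count + 1) of each gene group in each library (points), with the group mean and SD (bars), for nuclear genes by complex and for the 12 mitochondrial genes, and in the last panel the mitochondrial mean minus the nuclear mean. KO control libraries lie above WT control libraries for complexes II to V, and the last panel shows KO ezetimibe at 2.30 to 2.37 with KO control at 1.98 to 2.17.

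Other features of the libraries moved with this comparison. All 12 proliferation markers had log2 fold changes below 0 (median log2 fold change −1.33, 4 called), with summed counts of 1579 to 4031 in WT control and 715 to 1336 in KO control. Over all genes, 0.371% were called in this comparison. All 12 T and NK cell markers were below 0 (median −0.67, 0 called), with sums of 4663 to 7779.5 and 3587 to 4780.4. All 8 Paneth cell markers were below 0 as well (median −1.68, 0 called), with sums of 19444 to 64985 and 10314 to 17169. Of 6 tested adipocyte markers 5 were above 0 (median 1.96, 0 called), with sums of 2755 to 4156 and 2769.5 to 4282. No marker of these lists was at 0 in every library. Cytosolic ribosomal protein genes (a list added after values were seen) were above 0 for 75 of 76, with a median of 0.18 and 0 called, beside 0.19 for the nuclear members. Fold changes also varied with transcript length: over all tested genes the median was 0.11 for exon lengths from 1000 to 1500 bases and −0.06 above 5000, and the nuclear genes had 0.20 and 0.03 in these bins (20 and 4 genes). Their median exon length was 1631 bases and that of all genes 4008. The part of these features in the result was not tested.

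Among the 12 mitochondrial genes none passed the test on the control diet, and the smallest adjusted p was 0.385 (mt-Nd6, log2 fold change 0.27). The count at an unadjusted p under 0.05 was 0, and edgeR and DESeq2 called 0. mt-Cytb shared no run of 50 bases with an annotated transcript of another gene. It had 101192, 89169, 99660.1 and 103335 in WT control and 111781, 107965 and 103687 in KO control (log2 fold change 0.13, SE 0.12). The KO libraries lay just above the WT libraries. mt-Co1, the most abundant transcript of the system, had 271988, 225327, 274819 and 254081 in WT control and 288344, 250064 and 267861 in KO control (log2 fold change 0.07, SE 0.16). mt-Nd1 was the one mitochondrial gene below 0, with 67582, 56951, 56937 and 60326 in WT control and 50027, 67535 and 50370.0 in KO control (log2 fold change −0.12). Both of these overlapped between the groups. Over the 5 genes that share under 50% of their sequence the median was 0.07, and over the 7 that share more it was 0.16. The median over all 12 went from 0.11 to 0.064 without WT control replicate 2.

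In KO mice, ezetimibe went with lower nuclear oxidative phosphorylation RNA, again with 1 gene past the test. Ndufa4 (ENSMUSG00000029632, chr6:11900292-11907497, minus strand) fell. Its normalised counts were 3858, 4593 and 3889 in KO control and 3363, 2717, 2513 and 3228 in KO ezetimibe. All 4 ezetimibe libraries lay below all 3 control libraries. The means were 4114 ± 416 (SD, n = 3) and 2955 ± 405 (SD, n = 4) (log2 fold change −0.48, SE 0.11, limma adjusted p = 0.0491). WT libraries stood at 3142, 3389, 3155 and 3528 without ezetimibe and 3265, 3054, 2985 and 3019 with it, and the log2 fold change of ezetimibe in WT was −0.10 (adjusted p = 0.999). The difference between the diet effects in KO and WT was −0.38 (SE 0.14) and did not pass the interaction test (limma adjusted p = 0.681). The call in KO held in 9 of 22 alternatives, with adjusted p from 0.00178 (DESeq2) to 0.213. It was lost without KO control replicate 1 or 2 and without KO ezetimibe replicate 2 or 3 (adjusted p 0.105 to 0.213).

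The 1 called gene stands beside 0.727% of all genes called (104 genes). At an unadjusted p under 0.05, 58 of 102 genes were lower and 0 higher, beside 11.2% of all genes lower and 11.8% higher. The groups did not overlap, in the lower direction, for 29 of 102 genes and for 9.38% of all genes. The log2 fold change was below 0 for 87 of the 90 nuclear genes, with a median of −0.27, and for 8 of the 12 mitochondrial genes, with a median of −0.05. The median over all genes was 0.0056. All 58 genes at an unadjusted p under 0.05 were nuclear. DESeq2 called 25 members, all lower, where 10.3% of the genes it tested were called, and edgeR called 2 (Ndufb6 and Ndufa4) of 97 genes in all. The 3 KO control libraries also enter the control-diet comparison of genotypes, so the opposite signs of the nuclear medians, 0.19 and −0.27, are not independent of each other.

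By complex the nuclear medians lay close together: −0.29 for complex I, −0.18 for complex II, −0.28 for complex III, −0.30 for complex IV, −0.25 for ATP synthase and −0.29 for the assembly factors. In complex IV, Cox7a2l had normalised counts of 1725, 1898 and 1853 in KO control and 1723, 1146, 956 and 1293 in KO ezetimibe. KO ezetimibe replicate 1 lay just below the lowest KO control library and the other 3 far below (log2 fold change −0.54, SE 0.14, adjusted p = 0.0574). Cox4i1 had 6251, 4533, 4751 and 5809 in KO ezetimibe (log2 fold change −0.46, SE 0.11, adjusted p = 0.0563) and Cox6c 3764, 2701, 2692 and 3354 (−0.46, adjusted p = 0.0563), both below every KO control library. Cox6a1 had 5290.4, 4386, 4712 and 5547 in KO ezetimibe, below all KO control libraries (log2 fold change −0.35, adjusted p = 0.0638). The muscle form Cox6a2 and the testis form Cox6b2 were the 2 genes of complex IV above 0, at 0.68 (SE 0.56) and 0.27 (SE 0.21).

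In complex I all 38 genes were below 0. Ndufb6, a subunit of the membrane arm, had 407, 494 and 378 in KO control and 294, 315, 302 and 319.6 in KO ezetimibe (log2 fold change −0.46, SE 0.10, adjusted p = 0.0521). Its groups did not overlap, and 31.6% of its runs of 50 bases also occur in another gene model. Ndufc2, also of the membrane arm, had a log2 fold change of −0.43 (adjusted p = 0.0921), while the core subunits Ndufs1 and Ndufv1 had −0.03 and −0.20. Ndufaf4, an assembly factor, had the lowest value of all 102 genes, −0.66 (SE 0.23, adjusted p = 0.117), with counts of 468, 550.2 and 332 in KO control and 253, 322, 203 and 368 in KO ezetimibe, which overlapped. In complex III the value was −0.48 for Uqcrh (adjusted p = 0.0644), −0.37 for Uqcrq, −0.37 for Uqcr11, −0.23 for Uqcrfs1 and −0.07 for Uqcrc2. In ATP synthase it was −0.50 for Atp5g2, which encodes the ring subunit c (adjusted p = 0.0641), −0.25 for Atp5o of the peripheral stalk and −0.05 for Atp5b. In complex II it was −0.27 for the membrane anchor Sdhd and 0.06 for Sdha, the only gene of the complex above 0.

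Without KO control replicate 2 the nuclear median in this comparison was −0.19, and that of complex I moved from −0.29 to −0.18, that of ATP synthase from −0.25 to −0.15 and that of the assembly factors from −0.29 to −0.16. Without KO control replicate 3 the assembly factors had −0.44. Cytosolic ribosomal protein genes were also lower: all 76 were below 0, with a median of −0.82 and 4 called. Over all genes, 0.727% were called in this comparison. DESeq2 called 75 of the 76 ribosomal genes, all lower, where 10.3% of the genes it tested were called. The mean log2 level of the ribosomal genes was 11.38, 11.89 and 11.48 in KO control and 11.16, 10.78, 10.21 and 10.93 in KO ezetimibe. Over all tested genes the median fold change ran from −0.26 for exon lengths up to 500 bases through −0.16 between 1000 and 1500 to 0.11 above 5000. Nuclear oxidative phosphorylation genes had −0.30 between 1000 and 1500 bases (20 genes) and −0.23 between 3000 and 5000 (17 genes), where all genes had −0.01. With each library corrected for its own trend with exon length, an analysis added after seeing the data, the nuclear median was −0.15, the mitochondrial median 0.14, and neither Ndufa4 nor any other member was called. Of 10 myeloid cell markers 8 were below 0 (median −1.28, 1 called), with sums of 894 to 1116 in KO control and 349 to 585 in KO ezetimibe. All 12 T and NK cell markers were above 0 (median 0.54, 0 called), with sums of 3587 to 4780.4 and 4939 to 6776. Of these 12, 9 had an unadjusted p under 0.05, where 11.8% of all genes were higher. Of 12 proliferation markers 11 were above 0 (median 0.48, 0 called), with sums of 715 to 1336 and 1189 to 1544, and all 5 tested tuft cell markers were above 0 (median 0.47, 0 called), with sums of 513 to 609 and 666 to 965. The part of ribosomal genes, length and these cell types in the result was not tested beyond these values.

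**Figure D5:**
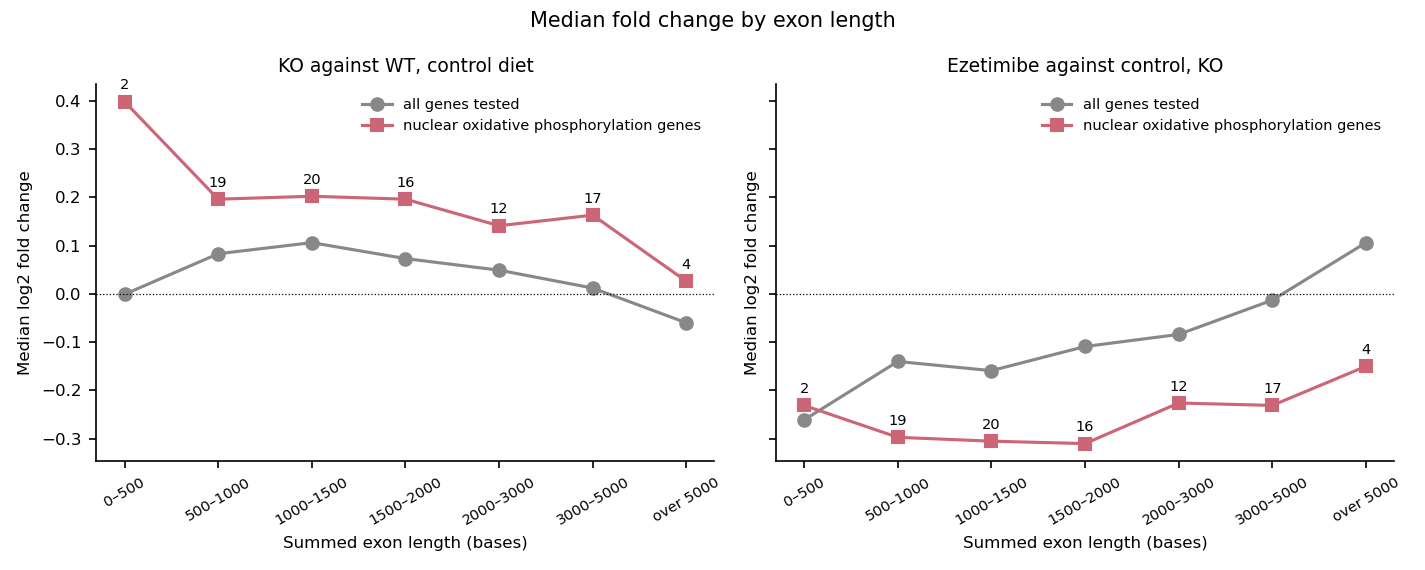
Median log2 fold change by summed exon length for all tested genes (grey circles) and for nuclear oxidative phosphorylation genes (red squares, with the number of genes in each bin), for the knockout on the control diet and for ezetimibe in KO. All-gene medians fall with length from 0.11 to −0.06 in the first beyond 1000 bases and run from −0.26 to 0.11 in the second, and the nuclear genes lie above all genes in every bin of the first and below them in every bin over 500 bases of the second.

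The 12 mitochondrial genes did not pass the test with ezetimibe in KO either. mt-Co1 had normalised counts of 288344, 250064 and 267861 in KO control and 297054, 264996, 297255 and 299180.2 in KO ezetimibe (log2 fold change 0.11, SE 0.16, limma adjusted p = 0.729), and KO ezetimibe replicate 2 lay among the control libraries while the other 3 lay above them. mt-Nd5, the largest mitochondrially made subunit of complex I, was the highest at 0.16 (SE 0.14), with 49974, 37238 and 47974 in KO control and 46948, 49805, 49960.0 and 52639.6 in KO ezetimibe. mt-Nd6 was the lowest at −0.20 (SE 0.14), with 11626, 15910.1 and 11869 in KO control and 12208, 10892, 9624 and 12889.6 in KO ezetimibe, and overlapped. The others were −0.05 for mt-Nd1, 0.04 for mt-Nd2, −0.04 for mt-Nd3, −0.01 for mt-Nd4, 0.01 for mt-Nd4l, −0.09 for mt-Cytb, −0.06 for mt-Co2, −0.17 for mt-Co3 and −0.07 for mt-Atp6. In WT the corresponding log2 fold changes of ezetimibe ran from −0.22 (mt-Nd3) to 0.08 (mt-Nd6), with mt-Cytb at −0.17. Between the genotypes on ezetimibe they ran from −0.15 (mt-Nd1) to 0.37 (mt-Nd4l, a mean of 38.6 counts), and mt-Nd4 had 0.23 (limma adjusted p = 0.286), the smallest p of the 12.

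On ezetimibe, nuclear oxidative phosphorylation genes of KO and WT mice lay close together, and no member passed the test. The medians were 0.02 for nuclear genes, 0.16 for mitochondrial genes and −0.0018 for all genes. Limma called 0 of 102 members, where 0.00699% of all genes (1 gene) were called. At an unadjusted p under 0.05, 6 members were higher and 1 lower, beside 8.15% and 8.3% of all genes. edgeR called 0 members, and DESeq2 called mt-Cytb. The authors' deposited table of this comparison holds 72 rows and 0 members. mt-Cytb had normalised counts of 90912, 84533, 88463 and 85099 in WT ezetimibe and 103695, 98319.8, 97853 and 106109 in KO ezetimibe. All 4 KO libraries lay above all 4 WT libraries (log2 fold change 0.22, SE 0.11, limma adjusted p = 0.331). Cox6b2 had the largest difference among complex IV genes, with 104, 76.1, 103 and 81.7 in WT ezetimibe and 161, 105, 169 and 139.5 in KO ezetimibe (log2 fold change 0.64, SE 0.19, limma adjusted p = 0.223), and its groups did not overlap.

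Other lists had medians further from 0 on this diet, with 0 genes called in those given here. All 76 tested cytosolic ribosomal protein genes were below 0 (median −0.38), with sums of 168034 to 254284 in WT ezetimibe and 107695 to 206186 in KO ezetimibe. All 12 T and NK cell markers (median −0.49) and all 12 proliferation markers (median −0.62) were below 0, with sums of 6668 to 9150.1 and 4939 to 6776 for the first and 1693 to 2533 and 1189 to 1544 for the second. All 12 enterocyte markers were above 0 (median 0.28), and their sums did not overlap. The part of these lists in the values of the members was not tested.

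The 8 complex I assembly factors had a median of −0.29 beside 0.01 for the 38 complex I genes, a difference that was not tested. Ndufaf1 had 171, 179, 174 and 192 in WT ezetimibe and 164, 152, 85.2 and 158 in KO ezetimibe, so that KO ezetimibe replicate 3 was far below the others (log2 fold change −0.40, adjusted p = 0.287). Ndufaf5 had 73.9, 56.3, 46.2 and 72.4 in WT ezetimibe and 52.5, 44, 44.4 and 50.1 in KO ezetimibe (log2 fold change −0.35) and Ndufaf4 −0.34, while Ndufaf8 had 0.02. Leaving out KO ezetimibe replicate 3 moved the assembly factor median to −0.18. Among subunits the highest value was 0.25 for Ndufv3 and the lowest −0.24 for Ndufc2 in complex I. They were 0.21 for Sdha and −0.06 for Sdhd in complex II, 0.05 for Uqcrfs1 and −0.08 for Uqcrq in complex III, and 0.19 for Atp5j and −0.14 for Atp5g2 in ATP synthase. None of these differences passed the test. Cox6a1 had a log2 fold change of 0.19 on ezetimibe (adjusted p = 0.292), with 4433, 4401, 4484 and 4064 in WT ezetimibe and 5290.4, 4386, 4712 and 5547 in KO ezetimibe, which overlapped.

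In WT mice no member passed the test for ezetimibe. The nuclear median was −0.09, the mitochondrial median −0.03 and the all-gene median −0.0096. Limma, edgeR and DESeq2 each called 0 of 102 members, while limma called 0.217% of all genes (31 genes). At an unadjusted p under 0.05 the members had 3 lower and 0 higher, beside 1.94% of all genes lower. The smallest adjusted p among them was 0.822, for Ndufb6, with 353, 409.6, 376 and 409 normalised counts in WT control and 329.5, 347, 306 and 324 in WT ezetimibe. All ezetimibe libraries lay below all control libraries there (log2 fold change −0.24, SE 0.10). The complex medians ran from −0.10 for complex I to −0.05 for complex II. Here the 4 WT control libraries are those of the control-diet comparison of genotypes, and the 4 WT ezetimibe libraries those of the comparison on ezetimibe.

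The interaction, the diet effect in KO minus that in WT, was below 0 for 81 of 90 nuclear genes (median −0.19) and above 0 for 7 of 12 mitochondrial genes (median 0.07). No member and no other gene passed this test with limma (0.0% of 14299 genes), edgeR called 0 and DESeq2 called 0 members and 5 genes in all. At an unadjusted p under 0.05, 6 members were below 0 and 0 above, beside 3.15% of all genes below. The smallest adjusted p over the members was 0.681. Without KO control replicate 2 the nuclear median was −0.10. Without it the interaction medians of complexes I, III and V also came closer to 0, to −0.11, −0.13 and −0.07, from −0.19, −0.21 and −0.15.

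The balance between the genomes was described per library as the mean log2 level of the 12 mitochondrial genes minus that of the 90 nuclear genes. It was 2.29, 1.97, 2.33 and 2.10 in WT control, 2.20, 2.18, 2.29 and 2.14 in WT ezetimibe, 2.17, 1.98 and 2.16 in KO control and 2.30, 2.31, 2.37 and 2.35 in KO ezetimibe. The 4 KO ezetimibe libraries lay above all KO control and all WT ezetimibe libraries, and WT control spanned nearly the whole range. Group means were 2.17 ± 0.17 in WT control, 2.20 ± 0.064 in WT ezetimibe, 2.10 ± 0.11 in KO control and 2.33 ± 0.031 in KO ezetimibe (SD, n = 4, 4, 3 and 4). KO ezetimibe exceeded KO control by 0.23, between 0.17 and 0.27 with any of these libraries left out. Over the 5 genes without extensive annotated copies the difference was 0.24. The mitochondrial mean itself was 12.45, 12.50 and 12.48 in KO control and 12.57, 12.32, 12.35 and 12.55 in KO ezetimibe, which overlapped, and the nuclear mean was 10.28, 10.53 and 10.32 and 10.27, 10.01, 9.98 and 10.20, with no ezetimibe library above a control library. No test was made of this score over the members.

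As a share of all normalised counts, the 12 mitochondrial genes took 3.52, 3.42, 3.68 and 3.87% in WT control and 3.78, 3.73 and 3.56% in KO control, which overlapped. On ezetimibe they took 3.52, 3.63, 3.55 and 3.53% in WT and 3.84, 3.52, 3.22 and 3.79% in KO. The 90 nuclear genes took 1.28, 1.48, 1.33 and 1.49% in WT control, 1.46, 1.69 and 1.49% in KO control, 1.37, 1.38, 1.25 and 1.31% in WT ezetimibe and 1.41, 1.2, 1.09 and 1.31% in KO ezetimibe. The mitochondrial ribosomal RNAs mt-Rnr1 and mt-Rnr2, which are not members, summed to 92100.2, 75614, 93727 and 70634 normalised counts in WT control and 56245, 73404 and 67138 in KO control. Of 4 tested transcripts outside messenger RNA, 3 were below 0 for the knockout on the control diet and 3 above 0 for ezetimibe in KO. mt-Rnr1 was the furthest from 0 in these directions, at −0.59 and 0.54, and limma called 0 of the 4 in either comparison. Whether ribosomal RNA was depleted is not said in the labels.

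Genes that serve the same machinery were examined from 13 lists outside the 102. For each list the medians below are given first for the knockout on the control diet and then for ezetimibe in KO, where all genes had −0.0054 and 0.0056. Among 8 tested genes of cytochrome c and of enzymes that feed electrons to coenzyme Q, the medians were 0.14 and −0.18, and 1 gene was called. Sqor, which oxidises hydrogen sulphide and passes the electrons to coenzyme Q, rose in KO on the control diet, from 1828, 1599, 1959.6 and 1464 normalised counts in WT to 2896, 2372 and 2376 in KO (log2 fold change 0.58, SE 0.11, limma adjusted p = 0.047). All KO libraries lay above all WT libraries. The call was close to the threshold, and 0.371% of all genes were called in this comparison. DESeq2 called 2 genes of this list higher, where 3.43% of the genes it tested were called, and edgeR called 0. Without KO control replicate 1 limma called 0 of all genes higher, Sqor included. Etfdh, which does the same for electrons from fatty acid oxidation, had 0.30 (adjusted p = 0.0859), and Dhodh, of pyrimidine synthesis, −0.26.

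Assembly factors outside the naming rule had no called gene. The medians were 0.11 and −0.21 for 10 of complex I, 0.12 and −0.18 for 4 of complex II, 0.07 and −0.35 for 6 of complex III, 0.17 and −0.17 for 19 of complex IV and 0.09 and −0.29 for 4 of ATP synthase. Their smallest adjusted p values in KO with ezetimibe were 0.0549 for Tmem70, needed for ATP synthase assembly (log2 fold change −0.46), 0.062 for Cox14, which handles newly made mt-Co1 protein (−0.33), and 0.0917 for Ecsit of complex I assembly (−0.49). Surf1 and Timmdc1, assembly factors of complexes IV and I, had 0.33 and 0.30 in KO on the control diet. Further genes with the smallest p in their lists were, for ezetimibe in KO, Coa4 of complex IV assembly (−0.52), Uqcc1, Uqcc2 and Ttc19 of complex III (−0.29, −0.50 and −0.22), Sdhaf4 of complex II (−0.25) and Fmc1 of ATP synthase (−0.35). For the knockout on the control diet they were Tmem126b (0.23), Sdhaf3 (0.33) and Atpaf2 (0.30), of complex I, complex II and ATP synthase. Between the genotypes on ezetimibe it was Sdhaf1 of complex II (−0.89, limma adjusted p = 0.244).

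The 77 mitochondrial ribosomal protein genes, whose products translate the mitochondrial transcripts, had medians of 0.12 and −0.39. In KO, ezetimibe went with lower values for 76 of the 77, with 57 at an unadjusted p under 0.05 and 1 called. Over all genes, 11.2% were lower at that p and 0.727% were called in either direction. Mrpl40 fell, with 392, 365 and 305 normalised counts in KO control and 264, 226, 243 and 236 in KO ezetimibe (log2 fold change −0.54, SE 0.11, limma adjusted p = 0.0431). The groups did not overlap. Mrpl20 and Mrpl17 followed with −0.47 (adjusted p = 0.0537) and −0.55 (adjusted p = 0.0578). On ezetimibe the KO to WT median of this list was −0.21, with 67 of 77 below 0 and 0 called, beside 0.02 for the nuclear oxidative phosphorylation genes.

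The 14 genes that transcribe and maintain mitochondrial DNA had medians of 0.02 and −0.36, with 0 called, and Polrmt, the mitochondrial RNA polymerase, had −0.42 with ezetimibe in KO (adjusted p = 0.0804). The 11 nuclear regulators of respiratory genes had 0.05 and −0.0019. Among them Pprc1, a coactivator of the PGC-1 family, had −0.86 with ezetimibe in KO (SE 0.46, adjusted p = 0.27). The nuclear receptor Esrrg had −1.03 in KO on the control diet (adjusted p = 0.293, mean 20.1 counts). The 13 enzymes of the tricarboxylic acid cycle had 0.08 and −0.10, with Idh3b at −0.36 (adjusted p = 0.0629) and Ogdh at 0.34 with ezetimibe in KO. The 12 genes of coenzyme Q synthesis had 0.04 and −0.27. With ezetimibe in KO, Coq3 had the smallest adjusted p of that list, 0.0656 (log2 fold change −0.44). The 7 carriers of adenine nucleotides, phosphate and the outer membrane had 0.12 and −0.10. There the ADP/ATP carrier Slc25a4 had −0.99 with ezetimibe in KO (SE 0.23, adjusted p = 0.0537). The pore protein Vdac1 had 0.33 in KO on the control diet. The 2 tested uncoupling protein genes, Ucp2 and Slc25a14, had medians of 0.02 and −0.07.

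Promoter letters were compared because the nuclear genes, though spread over 19 chromosomes, mostly had fold changes of 1 sign within a comparison. The windows ran from 250 bases before to 50 after each start (RefSeq, GRCm38.p6), and 74 of the 90 nuclear genes and 10424 of all genes past the filter had one. CGCATGCG, the palindromic core bound by NRF1, occurred in 14.9% of the 74 and in 4.13% of the 10424, in either orientation. AAGATGGC, a YY1 core, occurred in 14.9% and 5.19%, CCGGAAG, an ETS core of the kind GABPA binds, in 25.7% and 19.7%, and AAGGTCA, a core bound by ESRRA, in 10.8% and 4.17%. The NRF1, YY1 and ETS shares were not particular to these genes. Of the 77 mitochondrial ribosomal protein genes 68 had a window. The NRF1 letters occurred in 10.3% of these, the YY1 letters in 17.6%, the ETS letters in 36.8% and the ESRRA letters in 5.88%. CCGGAAG ends in the letters with which AAGATGGC and AAGGTCA begin, so that these matches can overlap. By complex the YY1 letters were in 21.2% of complex I genes (7 of 33 with a window) and 0% of complex IV genes (0 of 11). The NRF1 letters were in 26.7% of ATP synthase genes (4 of 15) and 6.06% of complex I genes (2 of 33). These shares rest on few genes, and differences between complexes were not tested. The promoters of the 2 called genes are shown, Cox6a1 at chr5:115348909-115349208 and Ndufa4 at chr6:11907401-11907700, both on the minus strand and written 5′ to 3′ on that strand. Capitals mark the searched letters: Cox6a1 holds CGCATGCG and, in reverse orientation, the ETS letters, and Ndufa4 holds none of the 4.
Cox6a1: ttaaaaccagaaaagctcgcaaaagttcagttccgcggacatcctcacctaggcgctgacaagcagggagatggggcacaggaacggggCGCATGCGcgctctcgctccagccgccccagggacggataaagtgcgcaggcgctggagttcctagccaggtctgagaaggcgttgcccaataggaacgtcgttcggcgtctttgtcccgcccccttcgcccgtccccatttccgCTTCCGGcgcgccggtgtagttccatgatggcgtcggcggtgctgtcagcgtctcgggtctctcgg
Ndufa4: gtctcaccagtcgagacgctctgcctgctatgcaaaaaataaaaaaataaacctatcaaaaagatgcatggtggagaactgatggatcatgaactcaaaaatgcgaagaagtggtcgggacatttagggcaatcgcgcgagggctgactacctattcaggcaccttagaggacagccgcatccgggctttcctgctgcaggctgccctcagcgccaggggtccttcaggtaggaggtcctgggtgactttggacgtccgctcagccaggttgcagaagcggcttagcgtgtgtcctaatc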

How the data were processed

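Per the labels' protocols, TRIzol was used on 15 frozen distal jejunum samples and NEBNext Ultra II for the libraries. The submitters' processing notes name DESeq2, mm10, STAR 2.6.0c and FastQC. Read counter, annotation and strand setting were not given in the sources used here. In the deposited expression table, each signal value is a gene count divided by a DESeq2 size factor, per the file headers. In all libraries 100% of values became whole reads at 1 step size (tolerance 0.001 read), and no row lacked a gene identifier. Per the file headers, the authors' deposited comparison tables give a mean signal, a log2 fold change, its standard error, the Wald statistic as a score, a p-value with its adjusted p-value, and a linear fold. Both hold only rows with an adjusted p under 0.05.

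Log2(normalised count + 1) of the 14299 genes at 10 or more in at least 3 libraries was fitted in limma 3.58.1 (R 4.3.3, trended moderation) with 4 groups over all 15 libraries. The comparisons were KO with WT on each diet, ezetimibe with control diet in each genotype, and the interaction. P-values were adjusted by Benjamini-Hochberg over all genes, and a gene was called at an adjusted p under 0.05. The added 1 makes fold changes of low genes too small. Adjusted p values in the text are limma's unless DESeq2 1.42.0 or edgeR 4.0.16, both run on the recovered reads as alternatives, is named. Other alternatives changed the pseudocount, filter, scaling, length correction, moderation and libraries. Figures used matplotlib 3.10.9. Exon lengths, positions and shared sequence came from GENCODE M21 on GRCm38, which held 26825 of the 26844 identifiers, and promoters from RefSeq (GRCm38.p6).

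The members and gene lists were chosen with earlier results of these data known. Genes were named by a rule: the mitochondrial members, called members, the highest and lowest nuclear log2 fold change of each complex in each pairwise comparison, isoform families, core subunits, called genes and up to 3 with the smallest p in each outside list, and genes next to the level filter. The labels do not say that replicates came from separate animals, so p-values measure only the spread between these samples. The limma fit was also run on simulated counts in which all genes had the same dispersion. That run does not measure how reliable the calls in these data are.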

Additional observations from a re-analysis of the deposited data

Results flagged for a closer look

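In groups of 4 libraries, 201 group values were examined for a single library far from the other 3 by Dixon's ratio of gap to range, and 6 stood out; chance gives about 1 in 20. Of these, 3 belong to nuclear genes. Atp5d stood at 4308.5 normalised counts in WT control replicate 1, with the others at 4016.6 to 4064.1. Ndufa1 stood at 544.0 in WT control replicate 3, with the others at 638.8 to 643.9. Ndufaf1 stood at 85.23 in KO ezetimibe replicate 3, with the others at 152.2 to 163.9. Among mitochondrial genes, mt-Co1 stood at 264995.5 in KO ezetimibe replicate 2, with the others at 297054.3 to 299180.2, and mt-Nd5 at 53643.6 in WT control replicate 3, with the others at 38489.3 to 40224.8. The mean log2 level of the mitochondrial complex I genes was 12.34 in WT ezetimibe replicate 1 and 12.16 to 12.19 in the others.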

How the results depend on the processing

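The number of members called depended on the analysis. For KO against WT without ezetimibe it was 1, and 0 with a pseudocount of 5, no filter, scaling to nuclear totals, quantile normalisation, the compared groups alone, length correction (added after seeing the data), edgeR, limma-voom, or WT control replicate 4 and KO ezetimibe replicate 3 left out together. It was 9 with DESeq2 and 0 to 1 with 1 library left out. For ezetimibe in KO it was 1, and 0 under those same settings except edgeR (2), and 0 with robust moderation. It was 7 with a mean of at least 50 (330 of 10088 genes in all), 25 with DESeq2 and 0 to 11 with 1 library left out: 11 without KO ezetimibe replicate 1 (255 genes in all), 9 without replicate 4 (456) and 4 without KO control replicate 3 (442). On ezetimibe, DESeq2 called 1 (86 in all). Counts over all 14299 genes moved as well. In the control-diet comparison 53 became 442 with DESeq2, 12 with edgeR, 3 with the compared groups alone, and 3 (without KO control replicate 1) to 126 (without WT control replicate 1) with 1 library left out. For ezetimibe in KO 104 became 1155 with DESeq2, 97 with edgeR, 14 with the compared groups alone, and 5 (without KO control replicate 1) to 456 with 1 library left out. The causes were not tested.

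Samples with the same replicate number did not all deviate together (correlations −0.0914 to 0.17, 0.0123 to 0.263, 0.0638 to 0.233 and −0.242 to 0.0953 in the 4 comparisons). With the replicate block, 2 members of 231 genes in all were called in the control-diet comparison, and 24 of 1915 for ezetimibe in KO.

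Of the nuclear and mitochondrial medians, these moved by more than the spread between replicates. On ezetimibe, scaling to nuclear totals gave −0.125 for nuclear and 0.017 for mitochondrial genes (all genes −0.146), and quantile normalisation −0.03 for mitochondrial genes. In the interaction the mitochondrial median was −0.024 and −0.102 under these scalings. Length correction gave −0.146 and 0.143 for nuclear and mitochondrial genes with ezetimibe in KO, and −0.075 and 0.205 in the interaction. No called gene reversed. Depth limits the lowest members most: Cox6a2 had an SE of 0.56.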

Other observations

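Gm28438, the chromosome 1 copy of mt-Nd3, spanned its widest range in KO ezetimibe. It had 728, 487, 183 and 1192 normalised counts in KO ezetimibe, 246, 463 and 334 in KO control, 234, 227, 253 and 249 in WT control, and 239.7, 316, 308 and 286 in WT ezetimibe (ezetimibe in KO: log2 fold change 0.65, limma adjusted p = 0.36). mt-Nd3 itself had 62.1, 44, 47.9 and 65 in the same 4 KO ezetimibe libraries. The summed mitochondrial ribosomal RNAs mt-Rnr1 and mt-Rnr2 had 93532, 90093, 82778 and 77941 normalised counts in WT ezetimibe and 97353, 76619, 71798 and 78245 in KO ezetimibe, which overlapped.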
